A study of Mus musculus with 23 samples.

Results

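Wild-type (WT) β-TC6 cells at rest were described from the 3 WT RNA-seq libraries of a series of 23 samples, 9 of which were RNA-seq libraries. β-TC6 is an established mouse insulinoma line, made from β-cell tumours of mice in which an insulin promoter drives a viral large T antigen, and it stands for one tumour-derived line and not for islet β cells. The WT libraries were labelled wild type, with no knockout and no treatment named. They came from cells at passages 5 to 15, grown in DMEM with fetal bovine serum, glutamine and antibiotics. The knockout lines of the series, which lack the clock factors Bmal1 or Clock, gave 6 RNA-seq libraries that were not used here, and the series also mapped the splicing regulator THRAP3 on chromatin and RNA. No drug, synchronization or glucose step is stated for the WT libraries.

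All 20599 genes analysed were ranked by their mean TPM (transcripts per 1000000 transcripts), a level in which read counts are divided by exon length and scaled so that each library sums to 1000000. The 3 libraries held 14026517, 12608905 and 11281202 reads on genes whose length was known. The paper states that the cells were collected in triplicate from multiwell plates. Whether the cultures were kept apart before plating is not stated. The SD given beside a mean thus covers the spread between these libraries of the same line, which may be technical (n = 3 throughout).

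Pancreatic β cells make proinsulin, fold it in the endoplasmic reticulum, cut it with prohormone convertases and store it with amylin, chromogranins and zinc in dense-core granules. Glucose enters through a transporter, is phosphorylated, and its oxidation closes ATP-sensitive potassium (KATP) channels, after which calcium channels open and granules fuse with the membrane. Incretin, fatty acid, adrenergic and somatostatin receptors adjust the release. Insulinoma lines are known to keep much of this programme and to divide without end.

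A gene was called detected when its TPM was at least 1 in all 3 libraries. This held for 13637 genes, 66.2% of those analysed, with a median over all genes of 6.36 TPM. Of the 15194 protein-coding genes, 77.8% were detected, 11.9% had a mean of 100 TPM or more, and the median was 14.6 TPM. The counts of detected genes given for the lists are to be read against this 77.8%. List members with no value among the 20599 genes were not analysed, and the shares detected leave them out. At the other end, 5425 genes were under 1 TPM in every library and 76 were listed at 0 in every library. Counting error alone makes values near 1 TPM uncertain, since 3 reads corresponded to 0.952 to 1.09 TPM for a transcript as short as Ppy.

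Secretory products held high places in the RNA pool of WT β-TC6 cells, beside mitochondrial and ribosomal genes. Among the first 30 genes were 3 islet hormone genes (Ins2, Iapp and Ins1), 2 further peptide genes (Sct and Npy), 2 granule proteins (Scg2 and Chga) and 2 members of the prohormone processing list (Cpe and P4hb). The same 30 held 7 mitochondrially encoded genes and 5 cytosolic ribosomal protein genes. All mitochondrially encoded genes took 5.32% of TPM and all cytosolic ribosomal protein genes 5.66%. Ins1, Ins2 and Iapp together took 5.27%. Outside these classes stood, among others, Tceal9, an X-linked gene, at 4353, 4139 and 4864 TPM. Tsnaxip1 had 2277, 2161 and 2161 TPM. The first 10 genes took 13.99 ± 1.20% of all TPM, the first 100 took 29.1 ± 1.63%, and 530 genes made up 50% of the mean TPM.

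**Figure D1:**
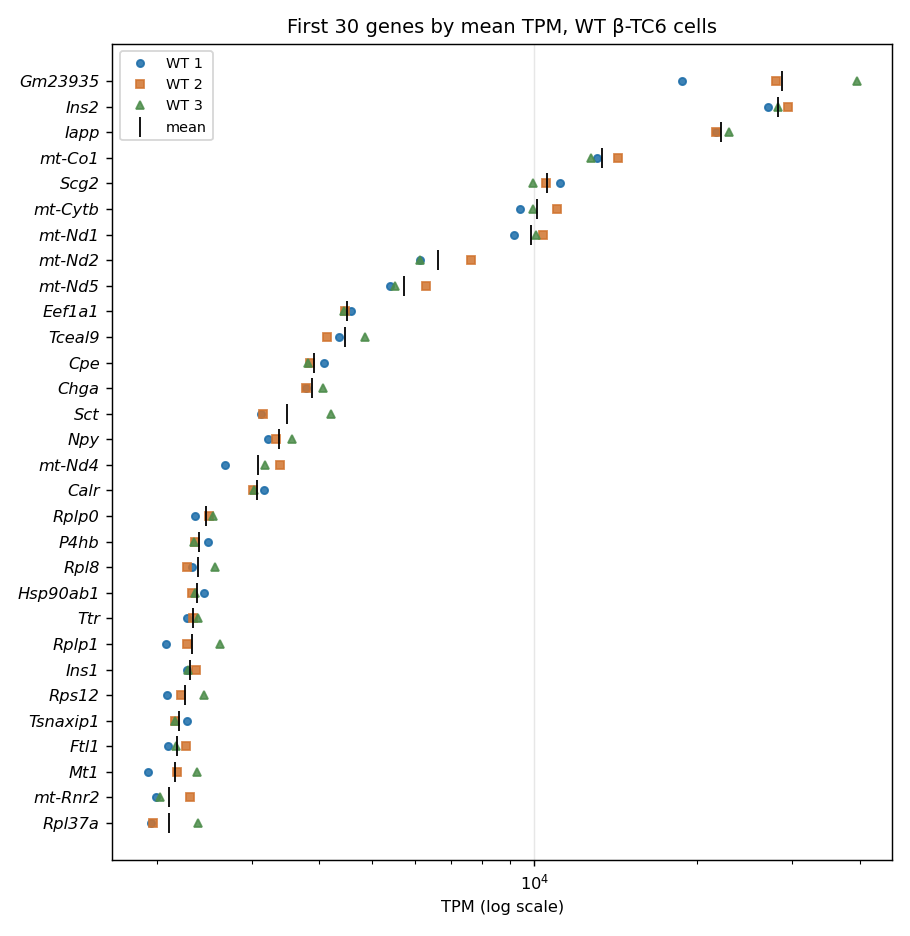
TPM on a log scale of the 30 genes with the highest mean in WT β-TC6 cells, with a circle, square and triangle for libraries WT 1, WT 2 and WT 3 and a bar for the mean. The libraries lie close together for Ins2 and Iapp, while Gm23935 spreads between 18729 and 39572 TPM.

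By mean TPM the first place went to Gm23935, a 57-base locus annotated as a miRNA gene. It had 18729, 28052 and 39572 TPM in WT 1, WT 2 and WT 3. These values rested on 6727, 9370 and 12366 reads, because a 57-base exon turns few reads into a high TPM. Its range overlapped that of Ins2, so the order of these 2 genes is not set by the data. By reads, Ins2 came first with 1.73% of those counted, followed by Scg2 with 1.23% and Iapp with 1.01%.

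The Gm23935 sequence is shown because it identifies the locus behind the highest TPM. It lies at chr16:11144125-11144181 (plus strand, GRCm38.p6), within the bounds of Zc3h7a, which is annotated on the opposite strand. The same bases stand at 3 places on the assembled chromosomes, and the other two are annotated as the miRNA genes Gm24270 and Gm24245. Gm24187 at chr13:9834469-9834525 (minus strand) matches it at 56 of 57 bases. Capitals mark the base of Gm24187 that differs from Gm23935.
Gm23935: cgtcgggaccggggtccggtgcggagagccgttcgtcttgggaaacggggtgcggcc
Gm24187: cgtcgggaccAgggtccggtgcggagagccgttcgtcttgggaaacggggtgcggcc
Gm24270 had a mean of 862 TPM, Gm24187 of 562 TPM and Gm24245 of 56.6 TPM. Reads that lie wholly within bases shared by these loci cannot be assigned to a single locus, and how many did so is not known. Each of these levels is therefore uncertain, and which RNA gave the reads was not tested.

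Of 7 islet hormone genes analysed, 5 were detected and 4 had a mean of at least 100 TPM. Ins2, the main murine insulin gene, had 27105, 29444 and 28251 TPM in the 3 libraries. Iapp, which encodes amylin, the peptide released with insulin, had 21682, 21690 and 22973 TPM. Ins1, the second insulin gene of rodents, had 2277, 2359 and 2284 TPM. The ranges of the 3 genes did not overlap, and Ins2 stood 12.3 ± 0.31 times above Ins1. Ins1 and Ins2 are close paralogs, so reads of one may have been lost to, or counted for, the other.

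Transcripts of hormones that other islet cells make were also present. Gcg, the proglucagon gene of α cells, had 475, 493 and 462 TPM, and Ins2 exceeded it 59.3 ± 2.04 times. Sst, the somatostatin gene of δ cells, had 88.2, 82.9 and 92.9 TPM. Ppy, which encodes pancreatic polypeptide, had 0.635, 0 and 1.46 TPM, from 2, 0 and 4 reads. Ghrl, the ghrelin gene, had 0.588, 0.633 and 0.507 TPM from 3 or 4 reads a library. The hormones thus fell into an order in which neighbours were apart down to Sst, while Ppy and Ghrl overlapped at the lower limit. Pyy was not analysed here. Bulk libraries cannot tell a low level in every cell from a high level in few cells.

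**Figure D2:**
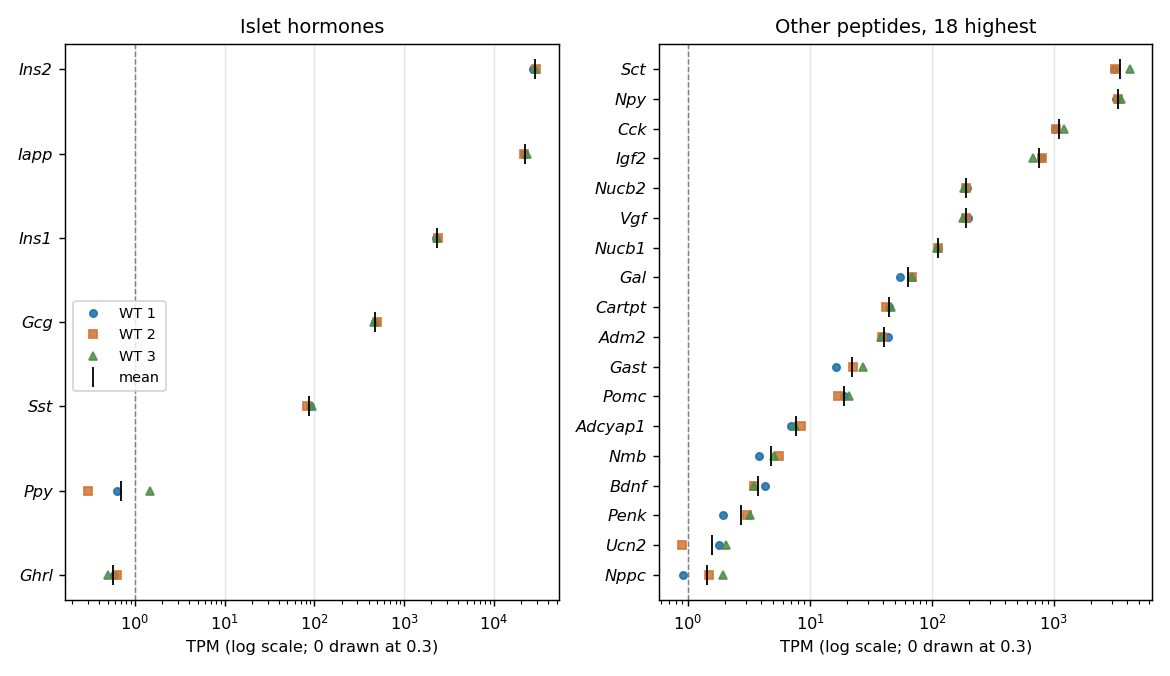
TPM on log axes of the 7 islet hormones (left) and of the 18 highest other peptides (right) in libraries WT 1, WT 2 and WT 3, with the mean as a bar and the detection level of 1 TPM as a dashed line. Ins2 and Iapp lie at 21682 TPM or more, Gcg near 476 and Sst near 88.0 TPM, while Ppy and Ghrl lie around the line.

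The start regions of 9 secretory genes were searched for short elements known from hormone promoters, and 4 of those with a match are shown for where the elements lie. Each window runs from 250 bases before to 50 bases after the RefSeq start in GRCm38.p6. Exact matches to 4 motifs were searched on both strands: TATAAA (the TATA box), GCCATCTG (the E-box core of the insulin genes), TAATTA (a homeodomain core) and TGACGTCA (the cAMP response element). Capitals mark every match found. Chga and Sct held a TATAAA and are not shown, and the windows of Iapp, Npy and Cck held none of these letters. The windows shown are Ins1 at chr19:52264047-52264346 (plus), Gcg at chr2:62483604-62483903 (minus), Sst at chr16:23890795-23891094 (minus) and Scg2 at chr1:79439977-79440276 (minus).
Ins1: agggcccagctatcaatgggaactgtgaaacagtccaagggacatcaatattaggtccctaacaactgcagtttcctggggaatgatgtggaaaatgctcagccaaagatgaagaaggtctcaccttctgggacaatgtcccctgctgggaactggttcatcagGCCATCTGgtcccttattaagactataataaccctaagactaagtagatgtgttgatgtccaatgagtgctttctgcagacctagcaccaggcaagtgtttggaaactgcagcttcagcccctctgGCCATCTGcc
Gcg: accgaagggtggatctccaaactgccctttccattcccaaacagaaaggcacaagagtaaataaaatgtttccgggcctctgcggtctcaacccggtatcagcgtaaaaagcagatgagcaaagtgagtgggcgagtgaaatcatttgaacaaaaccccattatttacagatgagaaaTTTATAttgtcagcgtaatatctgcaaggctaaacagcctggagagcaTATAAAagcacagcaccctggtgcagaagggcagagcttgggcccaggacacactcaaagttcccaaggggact
Sst: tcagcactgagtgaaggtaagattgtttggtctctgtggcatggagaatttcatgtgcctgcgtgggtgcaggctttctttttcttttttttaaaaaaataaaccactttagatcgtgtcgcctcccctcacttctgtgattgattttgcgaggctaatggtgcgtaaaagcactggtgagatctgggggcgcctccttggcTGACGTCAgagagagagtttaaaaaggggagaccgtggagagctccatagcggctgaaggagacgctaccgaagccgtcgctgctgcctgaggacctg
Scg2: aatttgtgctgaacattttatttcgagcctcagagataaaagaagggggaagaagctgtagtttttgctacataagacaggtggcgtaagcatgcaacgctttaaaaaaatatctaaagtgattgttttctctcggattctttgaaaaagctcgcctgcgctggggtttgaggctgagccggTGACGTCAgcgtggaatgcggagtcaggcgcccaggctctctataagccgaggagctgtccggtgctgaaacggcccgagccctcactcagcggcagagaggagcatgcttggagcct
Ins1 held GCCATCTG at positions 165 and 291 of its window, Gcg held TATAAA at 179 and 227, Sst held TGACGTCA at 203, and Scg2 held TGACGTCA at 183. The Ins1 match at 291 lies after the start, and the Gcg match at 179 is on the opposite strand (printed TTTATA). Of the 32851 windows of this length, 1.32% held GCCATCTG, 13.6% held TATAAA, 5.29% held TAATTA and 1.79% held TGACGTCA. The shares by level that follow count genes, each with a match in any of its windows. By that count, 1.52% of all 27025 genes with a window held GCCATCTG, 15.7% TATAAA, 6.12% TAATTA and 2.03% TGACGTCA. TGACGTCA stood in 1.83% of genes under 1 TPM (53 of 2894), 2.88% of those of 1 to 10 TPM, 3.98% of those of 10 to 100 TPM and 5.11% of those of 100 TPM or more (74 of 1449). TATAAA followed no single direction over the same classes, with 14.4%, 10.2%, 7.41% and 8.63%, and 15.6% of the 64 genes of 1000 TPM or more (10 genes). GCCATCTG fell over the same classes, with 1.45%, 1.34%, 0.946% and 0.897%, and TAATTA fell too, with 6.01%, 4.08%, 3.00% and 2.48%. Of the 64 genes of 1000 TPM or more, 4 held GCCATCTG (6.25%), 1 held TAATTA and 5 held TGACGTCA. These matches are descriptions of the letters in the windows and were not tested.

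Several neuropeptide and gut hormone genes exceeded Gcg. Sct, which encodes secretin, a hormone of the duodenum, had 3121, 3148 and 4198 TPM, with WT 3 above the other two. Npy, the neuropeptide Y gene, had 3216, 3319 and 3552 TPM. Cck, the cholecystokinin gene, had 1025, 1039 and 1208 TPM. Igf2, the fetal growth factor gene near Ins2 on chromosome 7, had 781, 795 and 676 TPM. The ranges of Npy and Sct overlapped, while Cck and Igf2 were apart from both and from each other. Of 37 other peptide genes analysed, 20 were detected, 7 of them at 100 TPM or more, and the list's median of 1.44 TPM lay below that of protein-coding genes. Gast, the gastrin gene, averaged 22.1 ± 5.59 TPM and Gal, the galanin gene, 63.9 ± 8.24 TPM. The first members of the list under 1 TPM in every library were Gip, Tac1, Oxt, Nmu and Pdyn.

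The granule compartment was strongly represented, with 30 of 33 genes detected, 18 at 100 TPM or more, and a median of 162 TPM, against 14.6 TPM for protein-coding genes. Scg2, which encodes secretogranin II, had 11172, 10510 and 9928 TPM. Chga, the chromogranin A gene, had 3776, 3773 and 4060 TPM, and Chgb, the chromogranin B gene, averaged 472 ± 25.0 TPM. Resp18 had 1395, 1480 and 1396 TPM, Slc30a8, the zinc transporter that loads granules, 1185, 1142 and 1084 TPM, and Ptprn, the granule membrane protein known as IA-2, 1165, 1129 and 1057 TPM. Slc30a8 and Ptprn overlapped, and the genes above them in this list did not overlap with their neighbours.

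Monoamine genes of the granule list were uneven. Th, tyrosine hydroxylase, had 292, 310 and 284 TPM, Ddc, the decarboxylase that acts after it, averaged 198 ± 9.16 TPM, and Maob, monoamine oxidase B, 595 ± 49.2 TPM. Slc18a2, the vesicular monoamine transporter VMAT2, was listed at 0 in WT 1 and WT 3 and at 0.0449 TPM in WT 2. Slc18a1, the related transporter, averaged 6.04 ± 1.14 TPM. Gad2, one of the glutamate decarboxylases that make GABA, had 47.9, 43.3 and 39.1 TPM, whereas its paralog Gad1 had no read in any library. With 3 reads as the limit that a count of 0 allows, Gad1 could have reached 0.0623 to 0.0716 TPM. Slc32a1, the vesicular GABA transporter, stayed at 0.244 to 0.783 TPM.

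Of 16 prohormone processing genes 14 were detected (87.5%, against 77.8% of protein-coding genes). Their median was 111 TPM, against 14.6 TPM for protein-coding genes. Cpe, carboxypeptidase E, which trims the cut prohormones, had 4072, 3837 and 3815 TPM. Pcsk2, prohormone convertase 2, averaged 629 ± 14.9 TPM and Pcsk1, prohormone convertase 1, 423 ± 32.1 TPM, a ratio of 1.49 ± 0.087 with no overlap. P4hb, protein disulfide isomerase, averaged 2392 ± 81.8 TPM. Ero1lb, the oxidase of the β-cell endoplasmic reticulum, averaged 878 ± 84.3 TPM and stood 21.7 ± 0.38 times above its paralog Ero1l. Scg5, the chaperone 7B2 of the second convertase, averaged 724 ± 7.76 TPM. Pcsk5 averaged 0.521 ± 0.026 TPM and was under 1 TPM in each library, and Pcsk6 lay between 0.597 and 1.05 TPM, so neither was detected.

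All 43 genes of the endoplasmic reticulum folding and unfolded protein response list were detected, 34 of them at 100 TPM or more. Its median was 381 TPM. Calr, calreticulin, averaged 3065 ± 80.6 TPM and Hspa5, the chaperone BiP, 1946 ± 114 TPM. Hsp90b1 averaged 2065 ± 177 TPM and Pdia6 1569 TPM. The sum over the list was 27199, 25676 and 25366 TPM in the 3 libraries.

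Of 44 islet transcription factors analysed, 35 were detected and 8 reached 100 TPM. The share detected, 79.5%, and the median of 13.4 TPM were near the 77.8% and 14.6 TPM of protein-coding genes, and a few factors stood far above that median. Mafa, a factor of mature β cells that binds the insulin promoter, had 838, 900 and 905 TPM. Pdx1, the pancreatic master regulator, had 496, 498 and 480 TPM, and Nkx6-1, a repressor of other islet fates, 273, 272 and 250 TPM. Isl1 averaged 230 ± 9.97 TPM and Neurod1 167 ± 10.96 TPM. Each of the first 4 factors was apart from the one below, while Neurod1 overlapped with the next factor, Tshz1. Foxa2, a pioneer factor of endoderm, averaged 88.7 ± 3.41 TPM.

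Another 9 factors of the list were under 1 TPM in every library. Tcf7l2, a Wnt pathway factor whose human gene is tied to type 2 diabetes, averaged 0.169 ± 0.040 TPM. Sox9, a duct and progenitor factor, averaged 0.122 ± 0.081 TPM, from 1 to 5 reads. Foxa1, the close paralog of Foxa2, averaged 0.788 ± 0.135 TPM and Gata6 0.795 ± 0.17 TPM. Lmx1a averaged 0.114 ± 0.068 TPM. Nr5a2, an acinar factor, averaged 0.0365 ± 0.041 TPM and Esrrb 0.0269 ± 0.026 TPM, both listed at 0 in WT 3. Hnf4a, by contrast, averaged 19.2 ± 0.72 TPM. Hhex and Neurog3 were not analysed here.

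**Figure D3:**
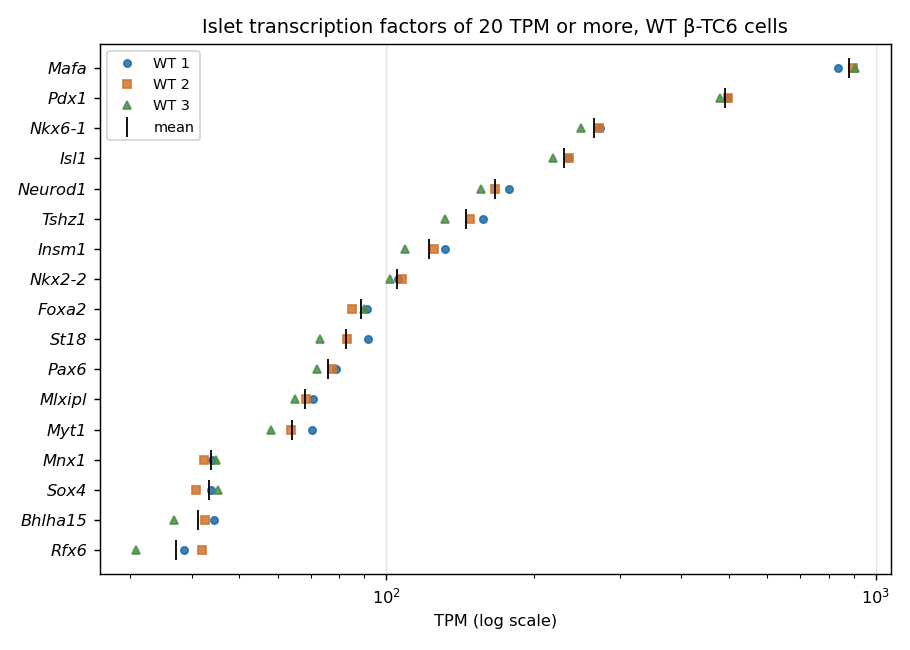
TPM on a log axis of the 17 islet transcription factors with a mean of 20 TPM or more in libraries WT 1, WT 2 and WT 3, with the mean as a bar. Mafa leads at a mean of 881 TPM, followed by Pdx1 at 491 TPM.

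Mature β-cell genes were detected in 28 of 30 cases, 20 of them at 100 TPM or more, with a median of 291 TPM. G6pc2, the islet glucose-6-phosphatase, averaged 1450 ± 63.6 TPM. Papss2, which makes the sulfate donor, averaged 784 ± 82.1 TPM, Ppp1r1a, a phosphatase inhibitor, 800 ± 33.0 TPM, and Adh1, an alcohol dehydrogenase, 416 ± 4.26 TPM. Spc25, a kinetochore gene that lies near G6pc2 on chromosome 2, averaged 645 ± 33.3 TPM. The 2 members under 1 TPM in every library were Gpr119, a fatty acid amide receptor, at 0.217 ± 0.18 TPM, and Shisal2b at 0.177 ± 0.088 TPM. Ucn3, urocortin 3, a late marker of β-cell maturation in mice, stood at 1.40, 1.27 and 1.48 TPM from 13, 11 and 12 reads, just over the detection level. Igf1r averaged 2.81 ± 0.16 TPM. Of 15 genes linked to immature or dedifferentiated β cells 12 were detected, led by Npy and Cck. This share, 80%, was near the 77.8% of protein-coding genes. All 20 housekeeping genes were detected.

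Several glycolytic enzyme genes were abundant. Of 54 glucose metabolism genes 46 were detected (85.2%, against 77.8% of protein-coding genes), 26 at 100 TPM or more. Pkm, the muscle-type pyruvate kinase, averaged 1444 ± 11.04 TPM and exceeded the liver-type Pklr 228 ± 7.60 times. Gapdh averaged 876 ± 44.8 TPM, Tpi1 784 TPM, and Pgk1 717 TPM. Slc2a2, the GLUT2 transporter of rodent β cells, had 111, 113 and 102 TPM, and Slc2a1, GLUT1, had 49.0, 53.3 and 51.1 TPM, a ratio of 2.13 ± 0.14. Hk1, the high-affinity hexokinase, had 30.8, 27.2 and 29.4 TPM. Hk2 averaged 0.342 ± 0.051 TPM, and Hk3 was seen in 1 library alone.

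Of 18 genes that β cells usually silence, the disallowed genes, 13 were detected (72.2%, near the 77.8% of protein-coding genes) and 2 were at 100 TPM or more, with a median of 10.3 TPM. Ldha, lactate dehydrogenase A, had 430, 519 and 621 TPM, with WT 3 the highest. Slc16a1, the monocarboxylate transporter that lets lactate and pyruvate cross, averaged 16.8 ± 1.29 TPM. Oat, ornithine aminotransferase, averaged 332 ± 14.4 TPM, and Maf 82.1 ± 1.23 TPM. Yap1, the Hippo pathway co-activator, had 0.0686, 0.0553 and 0.0197 TPM from 4, 3 and 1 reads. Fcgrt, Mgst1, Pdgfra and Zfp36l1 were the other members under 1 TPM in each library.

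Both parts of the KATP channel were detected. Abcc8, the sulfonylurea receptor, had 234, 236 and 215 TPM, and Kcnj11, its pore subunit, 109, 106 and 98.0 TPM, a ratio of 2.19 ± 0.044. Kcnk16, a two-pore channel of islets, averaged 187 ± 8.37 TPM, and Kcnh6 averaged 124 ± 12.5 TPM. The first 5 potassium channel genes did not overlap with the one below. Of 56 potassium channel genes 34 were detected (60.7%, median 2.59 TPM), below the 77.8% of protein-coding genes.

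Voltage-gated calcium channel pores were lower. Cacna1c had 17.1, 16.4 and 13.9 TPM, Cacna1d had 12.5, 12.4 and 11.1 TPM, and Cacna1a had 13.4, 12.3 and 10.3 TPM, so that Cacna1c was apart from the other two, which overlapped. Cacnb3, a β subunit, averaged 39.8 ± 1.34 TPM, and Trpm5, a calcium-activated cation channel, 39.7 ± 2.55 TPM. The list of other ion channels was topped by Ano6 at 65.8 ± 5.47, Hcn2 at 53.7 ± 2.49 and Clcn3 at 52.9 ± 6.53 TPM. None of its 52 genes reached 100 TPM, and 32 were detected.

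Of 72 G-protein-coupled receptors analysed, 38 (52.8%) were detected and 5 reached 100 TPM. Glp1r, the receptor of the incretin GLP-1, had 379, 349 and 322 TPM and stood 11.3 ± 0.67 times above Gipr, the GIP receptor. Ffar1, the long-chain fatty acid receptor GPR40, averaged 137 ± 6.81 TPM, Adra2a, the adrenergic receptor that inhibits insulin release, 118 ± 2.49 TPM, Oxtr, the oxytocin receptor, 104 ± 3.22 TPM and Sstr3, a somatostatin receptor, 102 ± 2.16 TPM. Sstr5 averaged 3.06 TPM and Sstr2 0.929 TPM. A further 35 receptors of the list, Gcgr and Mtnr1b among them, had no value among the 20599 genes and are left out of this share.

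Receptors of cytokines and growth factors were led by Il1r1, the interleukin-1 receptor, at 279, 248 and 216 TPM. Ntrk2, the receptor of the neurotrophin BDNF, averaged 181 ± 8.00 TPM, Igf2r 186 ± 17.1 TPM, and Ddr1, a collagen receptor, 124 ± 8.91 TPM. Insr, the insulin receptor, averaged 11.9 ± 0.99 TPM and stood 4.24 ± 0.47 times above Igf1r. Of 39 genes in this list 30 were detected (76.9%), near the share of protein-coding genes. Of 34 ligand-gated receptor genes 18 were detected (52.9%), below that share, and none reached 100 TPM.

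The exocytosis list had 63 of 76 genes detected (82.9%, near the 77.8% of protein-coding genes) and a median of 26.2 TPM. Syt13 averaged 446 ± 15.1 TPM, Syp, synaptophysin, 411 ± 13.4 TPM and Sytl4, granuphilin, 317 TPM. The calcium sensors Syt9 and Syt7 averaged 40.9 ± 2.24 and 35.3 ± 2.81 TPM.

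Cell cycle genes were strongly expressed, with 42 of 45 detected and 22 at 100 TPM or more. Cdkn2c, the CDK inhibitor p18, had 979, 979 and 985 TPM. Pcna averaged 392 ± 4.41 TPM, Top2a 368 ± 30.03 TPM, Mki67 307 ± 20.98 TPM, and Cdkn2a, the locus of p16 and p19Arf, 368 ± 19.97 TPM. Cdk4 averaged 256 ± 12.6 TPM, whereas Cdk6 averaged 0.0845 ± 0.017 TPM from 5 to 8 reads a library. Cdkn1c and Mycl each averaged 0.940 TPM.

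The genes whose loss the series studies were present in WT cells. Clock averaged 45.8 ± 4.48 TPM and Arntl, which encodes Bmal1, had 3.63, 3.52 and 4.22 TPM. Their partner genes Npas2 and Arntl2 lay under 1 TPM, at means of 0.0237 ± 0.021 and 0.405 ± 0.15 TPM. Nr1d2 was the highest of 21 clock genes at 85.2 ± 10.9 TPM, 18 of them were detected, and none reached 100 TPM. Thrap3 averaged 81.9 ± 7.98 TPM.

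Lipid synthesis genes ranged widely. Scd2, a desaturase, averaged 2040 ± 213 TPM and Acly, ATP citrate lyase, 1399 ± 63.3 TPM. Acaca, the acetyl-CoA carboxylase of fatty acid synthesis, averaged 9.30 ± 1.14 TPM, and its paralog Acacb was under 1 TPM in each library. Of 39 lipid genes 34 were detected, with a median of 34.5 TPM. Among antioxidant genes, of which 30 of 32 were detected, Mt1, a metallothionein, averaged 2160 ± 227 TPM and Sod1 1452 ± 90.3 TPM, whereas catalase, Cat, had 4.37, 4.24 and 3.07 TPM, and Gpx1 averaged 92.7 ± 6.42 TPM. Nqo1 averaged 0.669 ± 0.32 TPM. Of 27 imprinted genes 21 were detected, led by Nnat at 1201 ± 39.1 TPM, while Grb10, Mest, Sgce, Peg10 and Peg12 lay under 1 TPM in each library. Of 14 antigen presentation genes 12 were detected, with H2-D1 at 651 ± 31.3 TPM and H2-K1 at 387 ± 19.2 TPM.

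Markers of other cell types were mostly at or under the detection level. Of 9 acinar markers analysed, 3 were detected, led by Bhlha15 at 41.3 ± 3.95 TPM, and Ctrb1, Pnlip, Cpb1 and Reg1 were each under 1 TPM. Duct markers numbered 3 detected of 8, stromal 1 of 7, endothelial 2 of 9, glial 2 of 6, muscle 1 of 4, intestinal 2 of 7, immune 2 of 8 and hepatocyte 3 of 10, the last with Ttr and Apoa2 (49.6 ± 3.66 TPM) among them. Of the δ-cell markers 2 of 3 were detected, and the erythroid markers were not analysed here. The defining genes Cdh5, Pecam1, Col1a1, Col1a2, Ptprc and Alb averaged between 0.0499 and 0.571 TPM, and S100b was listed at 0 in each library, where 3 reads would be 0.321 to 0.369 TPM. Each of these analysed lists, other than the endothelial and muscle ones, held 1 or 2 genes of 10 TPM or more. In the duct list these were Onecut2, a transcription factor, at 39.6 ± 3.73 TPM and Spp1, osteopontin, at 11.9 ± 1.36 TPM. C1qa, a complement gene of macrophages, had 188, 198 and 174 TPM, while the immune genes Ptprc, Adgre1, Csf1r and Lyz2 averaged under 1 TPM and Cd68 averaged 9.10 ± 0.48 TPM. Cdx2, an intestinal factor, averaged 18.3 ± 2.01 TPM, and Tff3, of the same list, 18.96 ± 3.23 TPM.

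In the α-cell and neuronal lists most markers were detected. Of the 8 α-cell markers 7 were detected, with Ttr, transthyretin, at 2330 ± 53.6 TPM and Slc38a5, an amino acid transporter, at 1456 ± 23.4 TPM, while Irx2, a factor of the same list, averaged 11.5 ± 0.56 TPM. Ttr is also made by liver and by β cells. Of 16 neuronal markers 14 were detected, with Nefm, a neurofilament, at 551 ± 39.6 TPM, Nefl at 362 ± 9.81 TPM and Tubb3 at 151 ± 5.05 TPM, whereas Rbfox3, the NeuN gene, averaged 1.32 ± 0.20 TPM and Camk2a 0.0985 ± 0.073 TPM. Islet endocrine cells share many such genes with neurons. Of the β-cell markers, Ins2, Iapp, Ins1, G6pc2, Slc30a8, Mafa and Pdx1 had means of 491 TPM or more. The rest were lower, with Glp1r at 350, Nkx6-1 at 265, Slc2a2 at 109 and Ucn3 at 1.38 TPM.

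**Figure D4:**
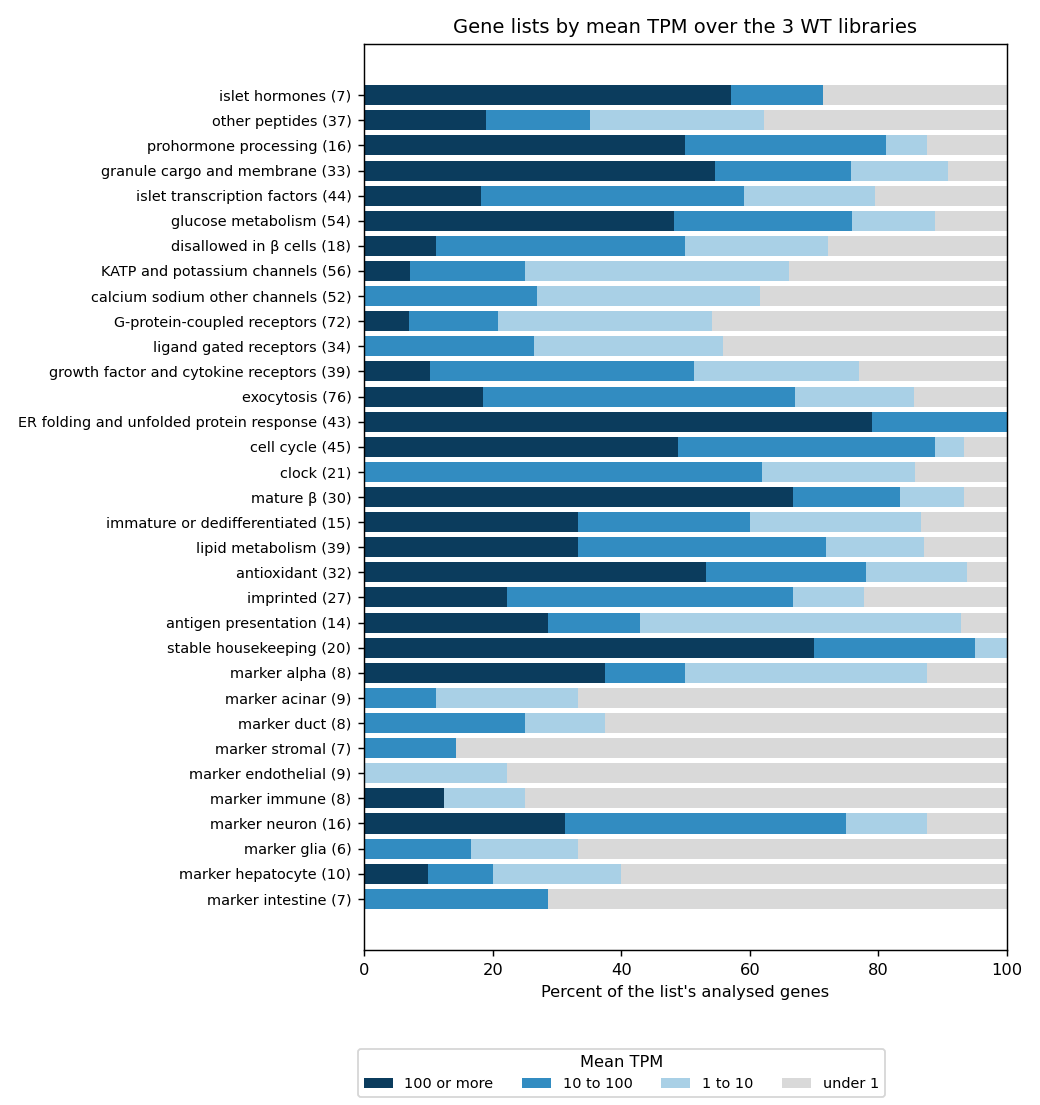
Share of each list's analysed genes (number in parentheses) with a mean of 100 TPM or more, 10 to 100, 1 to 10 and under 1 TPM over the 3 WT libraries. The endoplasmic reticulum folding list has no gene under 10 TPM, while stromal and endothelial markers lie mostly under 1 TPM.

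The 3 libraries agreed closely. Over all genes, Pearson's r of log2(TPM + 1) was 0.991 to 0.993 between pairs, a description over genes that share their libraries. The median coefficient of variation was 5.13% for genes of 100 to 1000 TPM, 14.8% for those of 1 to 10 TPM and 51.0% under 1 TPM. Pairs differed by more than counting error, with a chi-square per degree of freedom of 3.59 to 8.06, so no library was a copy of another, which does not show that they came from separate cultures. Of the 6768 genes that averaged 20 TPM or more, 14 had a highest library over 2 times the lowest, none of them protein-coding, and 12 had under 200 bases of exon. The largest ratio was that of Snord72, a small nucleolar RNA, at 29.4, 6.32 and 33.8 TPM from 15, 3 and 15 reads. Next came Mir5620, Gm24187, n-R5-8s1, Rmrp, Mir344-2, Gm24157, Gm25911, Gm27616 and Snora28, with ratios of 3.41 to 2.26.

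Exon length ordered the differences between WT 3 and WT 1. Over the genes of 20 TPM or more, the median log2 ratio of WT 3 over WT 1 was 0.25 for the 50 genes under 200 bases, 0.05 for genes of 1000 to 2000 bases, -0.07 for those of 2000 to 4000 bases and -0.25 for the 558 genes of 8000 bases or more. WT 2 over WT 1 ran from -0.03 to -0.11 between the same ends, with 0.05 at 200 to 500 bases. Some differences between libraries given above, such as the higher Sct in WT 3 and the higher Il1r1 in WT 1, have the direction of this trend. Ldha, with 3310 bases of exon, does not. It rose from 430 TPM in WT 1 to 621 TPM in WT 3, while the median of its length class was -0.07. The part of the trend in these differences was not tested.

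**Figure D5:**
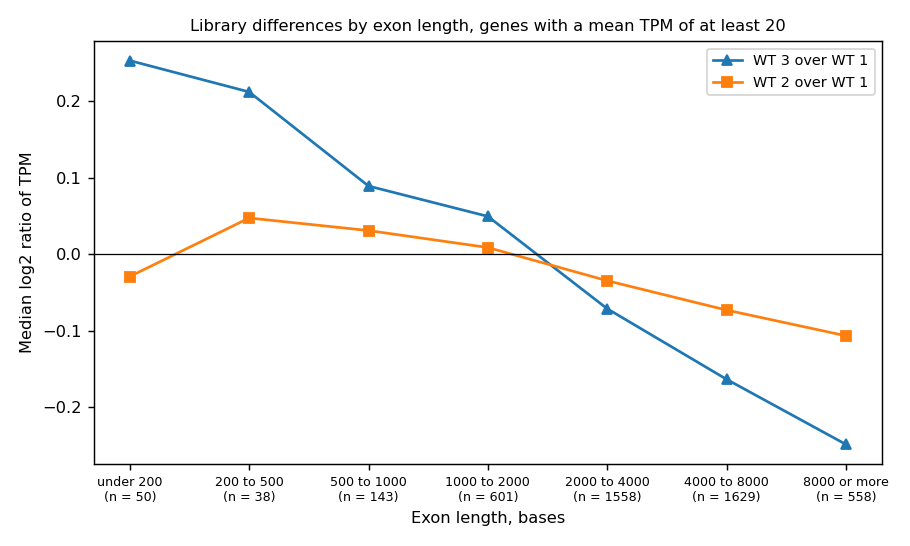
Median log2 ratio of TPM between WT libraries against exon length in bases, over genes that averaged 20 TPM or more (number per class under the axis). The WT 3 over WT 1 line runs from 0.25 for genes under 200 bases to -0.25 for genes of 8000 bases or more.

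Levels were finally set beside the THRAP3 peaks that ChIP-seq gave in WT cells, which were called separately in 2 replicates with 808 and 6128 peaks. A peak within 1 kb of the start was found for 2.26% of the 1813 protein-coding genes of 100 TPM or more in replicate 1 (95% Wilson interval 1.67 to 3.05%) and for 0.254% of the 3147 genes under 1 TPM (0.129 to 0.501%). In replicate 2 the shares were 16.8% (15.2 to 18.6%) and 1.91% (1.48 to 2.45%). The classes between lay between these shares in both replicates. The intervals cover counting error only, and genes are not replicates. Among the first 30 protein-coding genes, Ftl1 and Scd2 had a peak in replicate 1 and Rplp0 in replicate 2. Over all protein-coding genes the shares were 1.03% in replicate 1 and 10.4% in replicate 2. None of the 7 islet hormone genes had a peak, and with so few genes nothing is read from it.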

How the data were processed

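RNA of 3 WT β-TC6 libraries was poly(A)-selected, sequenced as paired ends, aligned to mm10 with STAR 2.5.0 and counted over exons of GENCODE vM10 with featureCounts 1.5.3, and the authors deposited TPM of 20599 genes, each library scaled to 1000000. Whether counting used strand is not given in the sources used here. Symbols came from GENCODE vM21 (20499 matched). For the 15767 genes whose identifier version was the same there, TPM times exon length gave whole reads (within 0.05) for 100% of values, which serve as depth, and whether a read is a pair is not stated. This step was tested on simulated data. The authors' THRAP3 peaks came from HOMER, which gives positions, scores and signal per peak, called per replicate. Their comparison columns hold fold changes and p-values and were not used, nor were the knockout columns. Groups followed the sample titles. No test between groups was made.

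The members and lists were chosen with earlier results of these data known. The 38 lists held 1001 symbols, of which 854 had a value among the 20599 genes and were analysed. A later symbol was used for 3. The text names the first 30 genes by mean TPM, the islet hormones, the highest 5 of every other list, members under 1 TPM (all in 3 lists, otherwise up to 5) and the 10 largest ratios between libraries with a mean of at least 20 TPM. Other named genes, such as Gm24245, Thrap3, Ucn3, Cat and Acaca, were chosen after their values were seen. A count of 0 allows up to 3 reads. Intervals are 95% Wilson intervals. Python 3 with pandas and numpy was used. Alternatives changed the TPM minimum, the ranking, the genes left out and the peak window. Some members of the lists are not reported here.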

Additional observations from a re-analysis of the deposited data

How the results depend on the processing

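No paired analysis was possible because a single group was described and no test was made. The count of 13637 genes detected was 14812 at a minimum of 0.5 TPM, 10533 at 5 TPM and 18739 above 0, and 13849 to 13902 when one library was left out. The share of TPM in the first 10 genes, 13.99%, was 11.97% without the mitochondrially encoded genes, 11.95% without Ins2, 11.9% without Gm23935 and 12.01% without genes under 200 bases, and 13.5 to 14.7% without one library. The share of reads in the first 10 genes by reads was 7.83%, and 16 of the first 30 genes by TPM were among the first 30 by reads, of 21 with a known length. The choices to leave out Gm23935, to leave out short genes and to rank by reads were made after seeing the data. At 5 TPM the potassium channels detected were 18, against 34 at 1 TPM, and the G-protein-coupled receptors 20, against 38. Rescaling without Ins2 moved 26 named genes by more than 1 SD, and without mitochondrial genes 79, by a factor of at most 1.06. The share of genes of 100 TPM or more with a THRAP3 peak was 1.21% (replicate 1) and 11.1% (replicate 2) with the upper part of the peaks by score, and 3.59% and 22.1% within 5 kb. The depth limits statements on genes with few reads.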
